A study of Mus musculus with 7 samples.

Results

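Interleukin receptors other than the IL-2 receptor were examined in CD8+ T cells exposed to small extracellular vesicles (sEVs). The 10 genes, *Il10ra*, *Il10rb*, *Il1r2*, *Il21r*, *Il27ra*, *Il12rb1*, *Il12rb2*, *Il18r1*, *Il6ra*, and *Il6st*, were chosen by symbol, and each had its own row among the 55367 genes counted. CD8+ T cells were sorted by FACS from spleens of Foxp3 YFP/cre mice for every library and were kept for 48 hours with 100 μg/mL of sEVs. In 4 libraries the cells received HCME-sEVs, the vesicles from spleens of healthy mice, and in 3 libraries they received LME-sEVs, the vesicles from spleens of leukemic Eμ-TCL1 mice, whose *TCL1* transgene is driven in B cells and causes a disease like chronic lymphocytic leukemia. The sample annotation gives 100 μg/mL for every culture, whereas the study's methods describe the physiologic amount of vesicles of each kind of spleen. These group sizes follow the sample annotation, and a figure legend of the study has the sizes swapped. The annotation names sorting by FACS, whereas the methods describe isolating CD8+ T cells for culture by negative selection with a kit. For the culture of CD8+ T cells the methods describe wells coated with anti-CD3, and anti-CD28 and IL-2 in the medium. The methods state young adult mice in general. Whether the libraries came from separate animals was not stated, so the tests measure the spread between these libraries, which may be technical. The 3′ ends of transcripts were counted by unique molecular identifier, and libraries held 3689831 to 5030522 counts.

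An interleukin receptor on a T cell is usually a pair of chains, of which 1 binds the cytokine with selectivity and the other is shared between cytokines or carries the signal. Class I receptors (here *Il12rb1*, *Il12rb2*, *Il27ra*, *Il6ra*, *Il6st*, and *Il21r*) and class II receptors (*Il10ra* and *Il10rb*) signal through JAK kinases and STAT factors, whereas receptors of the IL-1 family (*Il18r1*, and the decoy *Il1r2*, which binds IL-1 and sends no signal) belong to a system built on MYD88 and IRAK kinases. In CD8+ T cells IL-12 and IL-18 are known to drive IFNγ, IL-21 and IL-27 to shape differentiation and survival, and IL-10 to adjust activation through STAT3.

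The hallmark of class I receptors is the WSXWS box, a run of tryptophan and serine residues in the extracellular part of the protein. Its coding stretch is shown, as a description, for the members in which the exact pattern was found. The search does not divide the 10 chains by class, since *Il27ra*, a class I receptor, lacked the exact pattern. The pattern was found once in the longest coding transcript of 5 members and not in that of the other 5, *Il27ra* included. The stretches below are read 5′ to 3′ on the coding strand, with the 15 bases of the box in capitals and 9 bases on each side. They lie at chr7:125628989-125629021 (plus strand, exon 6 of 9) for *Il21r*, chr8:70813733-70813765 (plus strand, exon 7 of 16) for *Il12rb1*, chr6:67351261-67351293 (minus strand, exon 7 of 16) for *Il12rb2*, chr3:89885921-89885953 (minus strand, exon 6 of 10) for *Il6ra*, and chr13:112490588-112490620 (plus strand, exon 6 of 15) for *Il6st*, all in coding sequence on GRCm38 with GENCODE vM21.
Il21r: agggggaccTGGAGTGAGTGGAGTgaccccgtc
Il12rb1: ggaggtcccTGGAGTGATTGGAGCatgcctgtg
Il12rb2: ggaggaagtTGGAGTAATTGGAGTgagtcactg
Il6ra: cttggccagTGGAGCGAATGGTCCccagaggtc
Il6st: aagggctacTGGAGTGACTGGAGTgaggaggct
The 5 boxes were all different at the DNA level, and 9 of the 15 bases were the same in all of them.

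The RefSeq promoters of GRCm38.p6 matched 6 of the 10 members with 8 start sites. No promoter was matched for *Il10ra*, *Il10rb*, *Il27ra*, and *Il12rb1*, so these 4 were not searched. The 8 promoters were searched on both strands for the STAT letters TTCNNNGAA, the AP-1 letters TGANTCA, and the T-box letters TCACACC. The STAT letters were in 3 of these 8 promoters, 1 each of *Il1r2*, *Il18r1* (which has 3), and *Il12rb2*, against 8.3% of all 32851 promoters of the same length. The AP-1 and T-box letters, found in 7.81% and 3.98% of all promoters, were in none of the 8. The stretches around the STAT letters are shown because STAT genes were among the signaling genes tested; capitals mark the letters, which begin at position -111 from the start site in *Il1r2*, at -219 and -152 in *Il18r1*, and at -123 in *Il12rb2*. They lie at chr1:40085952-40086020 (plus strand), chr1:40465757-40465892 (plus strand), and chr6:67376273-67376341 (minus strand). A match of letters is a description and not a site shown to be bound.
Il1r2: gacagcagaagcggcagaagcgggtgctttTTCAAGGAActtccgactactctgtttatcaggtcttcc
Il18r1: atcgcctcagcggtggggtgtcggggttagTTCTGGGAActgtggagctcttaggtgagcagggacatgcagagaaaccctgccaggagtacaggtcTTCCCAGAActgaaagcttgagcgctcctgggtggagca
Il12rb2: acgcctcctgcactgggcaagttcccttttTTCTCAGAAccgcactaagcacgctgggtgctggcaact

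LME-sEVs were compared with HCME-sEVs to find the transcripts of treated CD8+ T cells that depend on whether the vesicles came from a leukemic or a healthy spleen. The IL-10 binding chain *Il10ra* rose 1.87-fold and the shared IL-12 and IL-23 chain *Il12rb1* fell to 0.673 of its level with HCME-sEVs. The decoy *Il1r2* was higher in every LME-sEV library but at too few counts for the test, and the other 7 members did not pass it. Of the 10 genes, 9 reached a mean of 5 counts per library and were tested, and 2 had an FDR under 0.05 (edgeR quasi-likelihood test, Benjamini–Hochberg adjustment over all 12623 genes tested), 1 in each direction. Over all genes tested, 8.96% had such an FDR, 3.75% with a higher and 5.21% with a lower level after LME-sEVs. None of the 9 members was a DEG in edgeR, defined by an FDR under 0.05 and a log2 fold change beyond 1, against 1.28% of all genes tested, and DESeq2, limma-voom, and an unadjusted p under 0.05 with the same fold gave 0 as well. At an unadjusted p under 0.05, 3 members were higher and 1 was lower. The median log2 fold change of the 9 members was 0.02, and that of all genes tested was 0.01. With 9 genes tested, nothing particular to the receptors as a group is read from these counts.

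**Figure D1:**
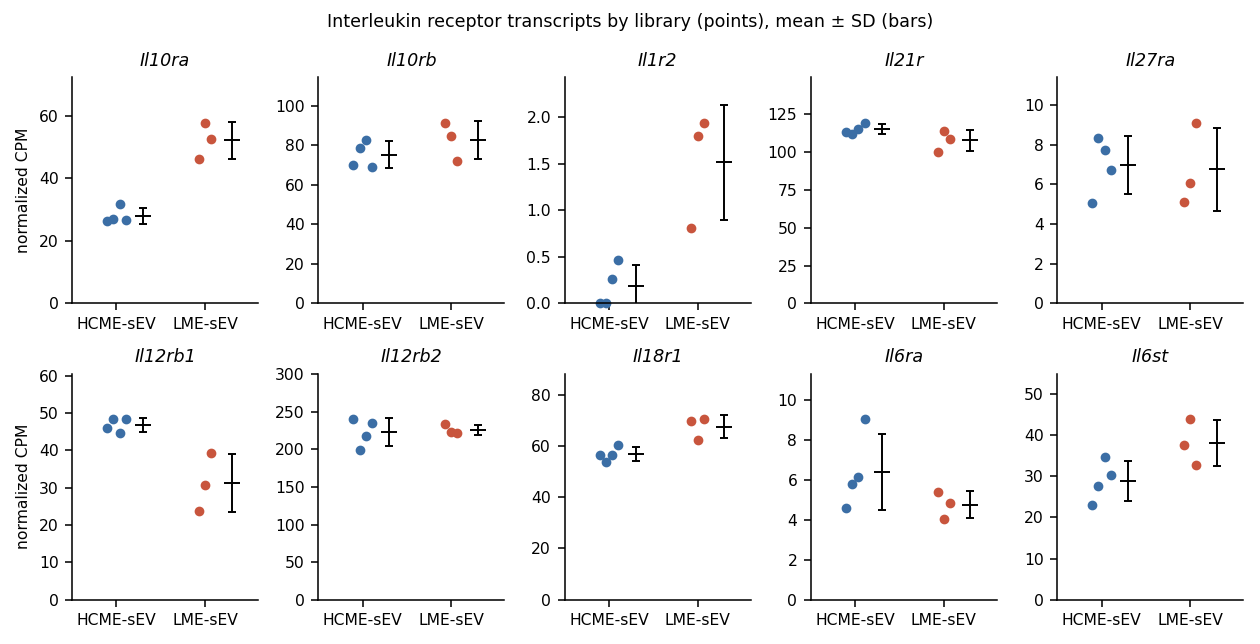
Normalized CPM (vertical axes, linear from 0, 1 scale per gene) of the 10 receptor genes in 4 HCME-sEV libraries (blue) and 3 LME-sEV libraries (red), with mean ± SD beside the points. The LME-sEV libraries lie above all HCME-sEV libraries for *Il10ra*, *Il1r2*, and *Il18r1*, below all of them for *Il12rb1*, and overlap them for the other 6 genes.

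*Il10ra* (chr9:45253837-45269149, minus strand, coordinates on GRCm38 with GENCODE vM21 here and below) encodes the chain that binds IL-10 and recruits JAK1. Its level in normalized CPM (CPM, counts relative to the library total after TMM scaling) was 26.5, 26.9, 31.7, and 26.8 in HCME-sEV libraries 1 to 4 and 46.0, 57.8, and 52.5 in LME-sEV libraries 1 to 3. The lowest LME-sEV library stood well above the highest HCME-sEV library, and the groups did not overlap. The means were 28.0 ± 2.52 (SD, n = 4) and 52.1 ± 5.89 (SD, n = 3), a log2 fold change of 0.90 ± 0.11 (SE, FDR = 0.000109), or 1.87-fold with a 95% interval of 1.59 to 2.21. Each value rests on 106 to 119 counts per HCME-sEV library and 171 to 271 per LME-sEV library. The call held without any 1 of the 7 libraries, with log2 fold changes of 0.82 to 0.99.

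*Il10rb* (chr16:91406164-91425834, plus strand), the chain that the IL-10 receptor shares with the receptors of IL-22 and the type III interferons, held 69.9, 78.8, 83.0, and 69.1 normalized CPM with HCME-sEVs and 91.5, 84.5, and 72.3 with LME-sEVs. The LME-sEV libraries reached from the lower range of the HCME-sEV libraries to above them. The log2 fold change was 0.13 ± 0.10 (SE, FDR = 0.466), with a 95% interval of 0.950 to 1.27 on the fold scale. The counts of *Il10rb* are uncertain, since its exons overlap those of Gm21970 on the same strand.

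*Il1r2* (chr1:40074079-40125231, plus strand), the decoy receptor of IL-1, was counted 0, 0, 1, and 2 times in HCME-sEV libraries 1 to 4 and 3, 8, and 10 times in LME-sEV libraries 1 to 3. Every LME-sEV library held more counts than any HCME-sEV library, but only LME-sEV libraries 2 and 3 exceeded the floor of 3 counts per library (0.582 to 0.807 normalized CPM), which allows for counting error only. With 21 counts against 3 the ratio of the summed levels was 8.48, with an exact 95% counting interval of 2.53 to 44.4. HCME-sEV library 4 holds 2 of the 3 counts, and without it the ratio was 18.7. A two-sided exact permutation test gave p = 0.0286, the smallest that its 35 arrangements allow. *Il1r2* stayed under the minimum of a mean of 5 counts per library and entered the fit only where that minimum was lifted, with a log2 fold change of 2.89 ± 0.82 (SE, FDR = 0.0145, edgeR). The FDRs of that fit cannot be set beside those of the fit with the minimum. For *Il10ra*, for example, it gave 6.62e-11 against 0.000109.

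Some genes of other cell types moved with the groups beside *Il1r2*, a gene known in neutrophils, monocytes, basophils, and some T cells. The summed level of 16 myeloid markers was 4.80 to 7.47 normalized CPM with HCME-sEVs and 11.6 to 14.8 with LME-sEVs, with 2 of the markers tested and none called by edgeR, DESeq2, or limma-voom (1 at an unadjusted p under 0.05). The neutrophil marker *Csf3r* was counted 0 times in 6 libraries and 1 time in LME-sEV library 3, and the monocyte and neutrophil marker *Lyz2* 1 to 5 times in every library. Other markers of the list, named after their values were seen, had more counts with LME-sEVs: the integrin gene *Itgam* was counted 0, 0, 0, and 1 times with HCME-sEVs and 6, 8, and 6 times with LME-sEVs, *Itgax* 3, 1, 2, and 0 against 5, 4, and 11 times, and *Ly6g*, whose groups overlapped, 0, 0, 1, and 0 against 4, 2, and 1 times. The lysosomal marker *Cd68* had a log2 fold change of 0.95 ± 0.42 (SE, FDR = 0.173), with groups that did not overlap. Further markers of the list did not have more counts with LME-sEVs. *Cd14* was counted 1, 1, 1, and 0 against 1, 0, and 0 times. *Flt3* was counted 1, 0, 1, and 2 against 0, 0, and 1 times, and *Csf1r* 4, 3, 0, and 4 against 2, 3, and 4 times. The 11 basophil and mast cell markers summed to 17.6 to 47.6 normalized CPM with HCME-sEVs and 49.4 to 71.7 with LME-sEVs. Of the 8 tested, 4 rose in edgeR and in limma-voom (*Mcpt8*, *Prss34*, *Prg2*, and *Kit*) but 1 in DESeq2. The groups did not overlap for 3 of the 8. *Fcer1a*, *Gata2*, and *Hdc* did not pass, with log2 fold changes of 0.37, 1.18, and 0.36 (FDR = 0.706, 0.266, and 0.450). *Ms4a2*, under the minimum, was counted 1, 3, 7, and 1 against 4, 4, and 3 times. *Cpa3* was the 1 tested marker of this list with a negative log2 fold change, -0.26 ± 0.34 (SE, FDR = 0.721). The basophil protease *Mcpt8* was counted 3, 35, 24, and 9 times with HCME-sEVs and 50, 71, and 36 times with LME-sEVs. *Prg2* was counted 0, 2, 2, and 2 against 18, 41, and 21 times. It reached the minimum of a mean of 5 counts only through the LME-sEV libraries, so it had to differ to be tested, and DESeq2 gave it no adjusted p. A sort or a negative selection for CD8+ T cells is meant to remove all of these cells. Their part in the level of *Il1r2* was not tested, and in bulk libraries more cells of a type and more RNA per cell cannot be told apart.

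*Il18r1* (chr1:40465552-40500854, plus strand) encodes the chain that binds IL-18. It held 56.4, 53.7, 56.3, and 60.5 normalized CPM with HCME-sEVs and 69.7, 62.3, and 70.6 with LME-sEVs. All 3 LME-sEV libraries lay above the 4 HCME-sEV libraries, by a small margin for library 2. The means were 56.7 ± 2.82 (SD, n = 4) and 67.5 ± 4.57 (SD, n = 3), and the log2 fold change of 0.25 ± 0.093 (SE) did not pass the test (FDR = 0.105), with a 95% interval of 1.04 to 1.36 on the fold scale. Groups that do not overlap were found for 3 of the 9 tested members (*Il10ra*, *Il12rb1*, and *Il18r1*), against 20.3% of all genes tested.

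*Il1r2* and *Il18r1* lie in the IL-1 receptor family cluster, chr1:40074079-40551705, where 6 protein-coding genes in 477.6 kb are all members of the family. None of the 4 others was called or had groups that were apart. *Il1r1*, the signaling receptor of IL-1, was counted 0 to 2 times per library. The IL-36 receptor gene *Il1rl2* held 4 to 9 counts, with a log2 fold change of -0.23 ± 0.46 (SE, FDR = 0.827), and the IL-33 receptor gene *Il1rl1* held 24 to 44 counts, at -0.10 ± 0.23 (SE, FDR = 0.852). *Il18rap*, the second chain of the IL-18 receptor, had means of 50.2 ± 0.739 (SD, n = 4) and 52.2 ± 3.20 (SD, n = 3) normalized CPM and a log2 fold change of 0.05 ± 0.10 (SE, FDR = 0.805).

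*Il12rb1* (chr8:70808449-70821424, plus strand), the chain common to the receptors of IL-12 and IL-23, held 46.0, 48.4, 44.5, and 48.4 normalized CPM in HCME-sEV libraries 1 to 4 and 23.7, 30.6, and 39.2 in LME-sEV libraries 1 to 3. The HCME-sEV libraries lay close together, whereas the LME-sEV libraries were spread widely and all lower. The means were 46.8 ± 1.91 (SD, n = 4) and 31.1 ± 7.76 (SD, n = 3), a log2 fold change of -0.57 ± 0.13 (SE, FDR = 0.0102), or 0.673-fold with a 95% interval of 0.556 to 0.815. The call was lost without LME-sEV library 1 (log2 fold change -0.41, FDR = 0.0581) and without LME-sEV library 2 (-0.55, FDR = 0.0649), and held without any other single library.

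*Il12rb2* (chr6:67291318-67376188, minus strand), the chain that makes a receptor specific for IL-12 and recruits STAT4, held 241, 199.9, 218, and 235 normalized CPM with HCME-sEVs and 234, 224, and 221 with LME-sEVs. The LME-sEV libraries fell inside the range of the HCME-sEV libraries. Its log2 fold change was 0.02 ± 0.080 (SE, FDR = 0.927), and the 95% interval of 0.902 to 1.14 on the fold scale did not reach the 0.673-fold of *Il12rb1*. Its exons overlap those of *Serbp1* on the opposite strand, and it is not given whether the counting used the strand, so reads of the pair may not be told apart.

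*Il27ra* (chr8:84030294-84042589, minus strand), the specific chain of the IL-27 receptor, held 5.06, 8.36, 7.74, and 6.75 normalized CPM with HCME-sEVs and 5.11, 6.07, and 9.11 with LME-sEVs. The groups covered nearly the same range. With 19 to 47 counts per library the log2 fold change was -0.01 ± 0.25 (SE, FDR = 0.988), and the 95% interval of 0.689 to 1.43 on the fold scale is wide, so that a moderate change was not detectable at this depth. The exons of *Il27ra* overlap those of *Palm3* on the opposite strand.

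*Il6st* (chr13:112464070-112510086, plus strand) encodes gp130, the signaling chain of the receptors of IL-6, IL-27, IL-11, and LIF. It held 23.1, 27.6, 34.7, and 30.3 normalized CPM with HCME-sEVs and 37.7, 44.0, and 32.8 with LME-sEVs. HCME-sEV library 3 lay above LME-sEV library 3, the only crossing between the groups. The log2 fold change of 0.40 ± 0.14 (SE, FDR = 0.0765) did not pass the test, with a 95% interval of 1.08 to 1.61 on the fold scale. Without HCME-sEV library 3 it passed (log2 fold change 0.49, FDR = 0.0254).

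*Il6ra* (chr3:89864059-89913196, minus strand), the chain that binds IL-6, held 4.58, 5.83, 6.13, and 9.08 normalized CPM with HCME-sEVs and 5.38, 4.05, and 4.85 with LME-sEVs. The groups overlapped, and HCME-sEV library 4 was the highest. The log2 fold change was -0.44 ± 0.28 (SE, FDR = 0.370) on 18 to 39 counts per library, with a 95% interval of 0.495 to 1.10 on the fold scale. Its exons overlap those of Gm42809 on the opposite strand.

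*Il21r* (chr7:125603429-125633570, plus strand), the chain that pairs with the common γ chain to bind IL-21, held 113, 112, 115, and 119 normalized CPM with HCME-sEVs and 100.1, 114, and 109 with LME-sEVs. The groups overlapped within a narrow range. The log2 fold change was -0.09 ± 0.082 (SE, FDR = 0.545), and the 95% interval on the fold scale was 0.833 to 1.05.

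**Figure D2:**
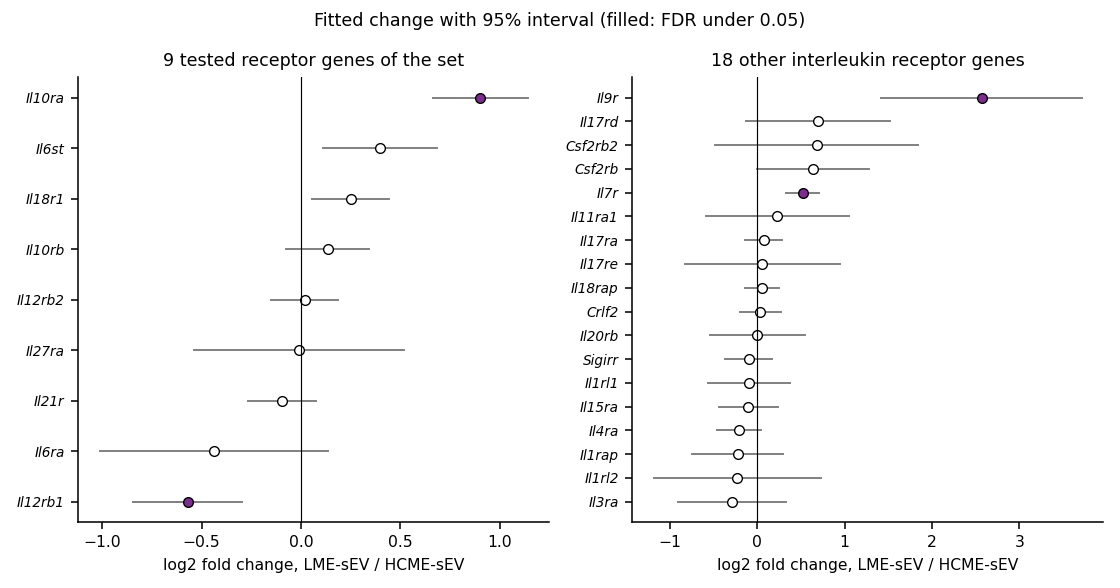
Fitted log2 fold change of LME-sEV over HCME-sEV (horizontal axes) with its 95% interval for the 9 tested receptor genes (left) and 18 other tested interleukin receptor genes (right); filled points have an FDR under 0.05. *Il10ra* at 0.90 and *Il12rb1* at -0.57 are the filled points on the left, and *Il9r* at 2.57 and *Il7r* at 0.52 those on the right.

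Since a receptor needs both of its chains, the log2 ratio of the chains was compared in each library for 6 receptors. This ratio compares the same pair of genes between groups, so that differences in how well each gene is captured cancel out. Reads from overlapping genes need not cancel, and overlaps were given above for *Il10rb*, *Il12rb2*, *Il27ra*, and *Il6ra*. The ratios of the IL-10 and IL-12 receptors reuse the counts of *Il10ra* and *Il12rb1*, called above, and are not independent of those calls. For the IL-10 receptor, the log2 ratio of *Il10ra* to *Il10rb* was -1.38, -1.54, -1.37, and -1.35 with HCME-sEVs and -0.98, -0.55, and -0.46 with LME-sEVs. It was thus higher in all 3 LME-sEV libraries, by 0.75 on the log2 scale. For the IL-12 receptor, the log2 ratio of *Il12rb2* to *Il12rb1* was 2.38, 2.04, 2.28, and 2.27 with HCME-sEVs and 3.28, 2.85, and 2.49 with LME-sEVs, a difference of 0.63 with groups that did not overlap. For the IL-6 receptor, the log2 ratio of *Il6ra* to *Il6st* was -2.22, -2.15, -2.40, and -1.69 with HCME-sEVs and -2.69, -3.31, and -2.66 with LME-sEVs, a difference of -0.77. Here too the groups did not overlap, with LME-sEVs lower. Each of these 3 differences had p = 0.0286 in the two-sided exact permutation test, the smallest that 35 arrangements allow, and 0.0571 after Benjamini–Hochberg adjustment over the 6 receptors, so none passed 0.05.

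The ratios of the other 3 receptors overlapped between groups. The log2 ratio differed by 0.19 for *Il18r1* to *Il18rap* (exact permutation p = 0.0571, adjusted 0.0857), by -0.46 for *Il27ra* to *Il6st* (exact permutation p = 0.200, adjusted 0.240), and by -0.15 for *Il21r* to *Il2rg*, the common γ chain (exact permutation p = 0.286, adjusted 0.286). The IL-27 and IL-6 ratios share *Il6st* and are not independent of each other. The counts of *Il2rg* are uncertain because its exons overlap those of Gm20489 on the same strand.

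**Figure D3:**
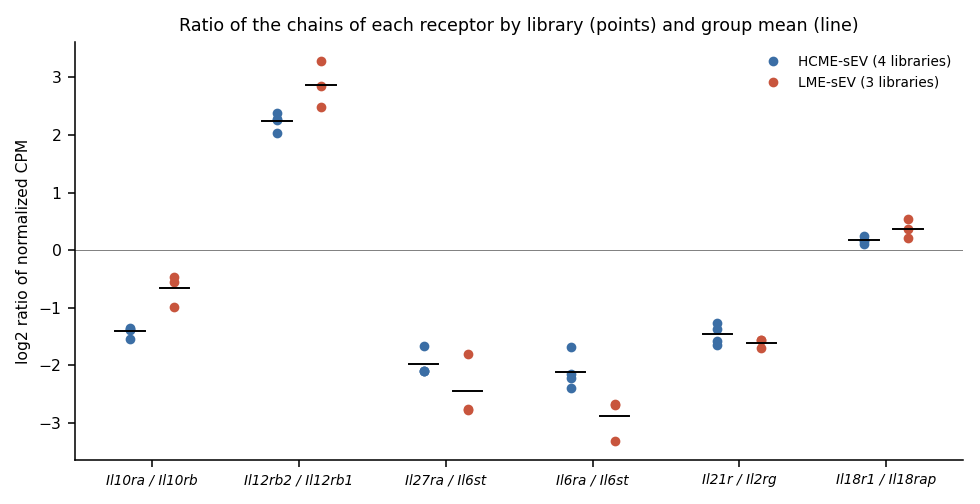
Log2 ratio of the normalized CPM of the chains of 6 receptors (vertical axis) in each HCME-sEV library (blue) and LME-sEV library (red), with the group mean as a line. The groups are apart for *Il10ra* to *Il10rb*, *Il12rb2* to *Il12rb1*, and *Il6ra* to *Il6st*, whose means differ by 0.75, 0.63, and -0.77.

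Of 35 further interleukin receptor genes, 18 were tested and 2 rose in edgeR and in limma-voom, but 1 in DESeq2, which gave *Il9r* no adjusted p. None fell in any of the 3 tests or at an unadjusted p under 0.05, and the list had a median log2 fold change of 0.04. *Il7r*, the IL-7 binding chain that marks naive and memory T cells, held 188, 195, 250, and 197 normalized CPM with HCME-sEVs and 298, 291, and 303 with LME-sEVs. The groups did not overlap, and the log2 fold change was 0.52 ± 0.09 (SE, FDR = 0.00125). *Il9r*, the IL-9 binding chain, was counted 0, 2, 4, and 2 times with HCME-sEVs and 14, 11, and 16 times with LME-sEVs, a log2 fold change of 2.57 ± 0.55 (SE, FDR = 0.00615). *Il9r* reached the minimum of a mean of 5 counts only through the LME-sEV libraries, where it was high, and dropped out where each library had to hold 5 counts, so its fold and FDR are those of a gene that had to differ to be tested. The IL-9 receptor is also found on mast cells and basophils. Of their 8 tested markers, 4 rose in edgeR and 1 in DESeq2, as given above. The part of these cells in *Il9r* was not tested. Of the receptors that did not pass, *Il4ra*, the IL-4 binding chain, had means of 185 ± 40.0 (SD, n = 4) and 160 ± 9.82 (SD, n = 3) normalized CPM. *Il23r*, which pairs with *Il12rb1* to bind IL-23, was counted 0 to 2 times per library.

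Of 20 ligands of these receptors and their relatives, 19 were in the table, 8 were tested, 2 rose, and 2 fell. *Ebi3*, the subunit shared by IL-27 and IL-35, held 11.1, 8.87, 11.7, and 10.9 normalized CPM with HCME-sEVs and 18.8, 23.6, and 18.4 with LME-sEVs. It was higher in all 3 LME-sEV libraries, with a log2 fold change of 0.93 ± 0.16 (SE, FDR = 0.00135). *Il27*, which encodes the partner of *Ebi3* in IL-27, had no count in any library, and *Il12a*, which encodes its partner in IL-35, was counted 0 or 1 times. *Il23a*, the specific subunit of IL-23, had a log2 fold change of 0.82 ± 0.21 (SE, FDR = 0.0209), although LME-sEV library 1 (11.8 normalized CPM) lay below HCME-sEV library 3 (12.8). Its call was lost without HCME-sEV library 2 (FDR = 0.0534) or 4 (FDR = 0.0653) and without LME-sEV library 2 (FDR = 0.0570) or 3 (FDR = 0.263), in the last case with a log2 fold change of 0.46.

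The ligands that fell were *Lif* and *Osm*, which encode cytokines of the IL-6 family. The other tested ligands of that family did not pass, with a log2 fold change of 0.68 (FDR = 0.368) for *Il11* and 0.02 (FDR = 0.97491) for *Clcf1*. *Lif* held 8.91, 10.9, 16.8, and 10.5 normalized CPM with HCME-sEVs and 3.50, 2.70, and 2.91 with LME-sEVs. Its groups were far apart, at a log2 fold change of -1.95 ± 0.27 (SE, FDR = 0.000231), which made it the only DEG among the ligands tested. *Osm*, which encodes oncostatin M, held 20.5, 19.5, 22.9, and 19.8 normalized CPM with HCME-sEVs and 13.7, 11.2, and 13.8 with LME-sEVs. All 3 LME-sEV libraries were lower, at -0.68 ± 0.15 (SE, FDR = 0.00708), and the call was lost without LME-sEV library 2 (FDR = 0.0617). *Il10* itself was counted 9, 7, 5, and 4 times with HCME-sEVs and 0, 3, and 4 times with LME-sEVs, under the minimum for the test. At 0.931 to 2.17 against 0 to 0.776 normalized CPM its groups did not overlap, with LME-sEVs lower, on few counts. *Il6*, *Il21*, and *Il12b* were counted at most 8, 3, and 3 times in any library.

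Downstream of the receptors, 3 of 15 receptor kinases and signal transducers rose in edgeR and in limma-voom, 2 in DESeq2, which lost *Irak2*, and none fell in these tests (1 lower at an unadjusted p under 0.05). *Stat3*, the main transducer of IL-10, IL-6, and IL-21 signals, held 507, 511, 516, and 562 normalized CPM with HCME-sEVs and 764, 785, and 660 with LME-sEVs. The groups did not overlap, and the log2 fold change was 0.49 ± 0.08 (SE, FDR = 0.000641). *Stat5b*, a transducer of the common γ chain cytokines, had a log2 fold change of 0.29 ± 0.08 (SE, FDR = 0.0355), and *Irak2*, a kinase of the IL-1 and IL-18 receptors, one of 0.83 ± 0.25 (SE, FDR = 0.0437). The calls of *Stat5b* and *Irak2* were fragile, since they held without 2 and without 1 of the 7 libraries and were lost without each of the others, with FDR up to 0.178 and 0.186. *Stat4*, which carries the IL-12 signal, had a log2 fold change of 0.18 ± 0.09 (SE, FDR = 0.208).

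Of 13 feedback inhibitors, 12 were tested, 3 fell, and none rose (edgeR, 2 higher at an unadjusted p under 0.05; none higher in DESeq2 or limma-voom). *Cish*, an inhibitor induced by STAT5, held 239, 171, 145, and 213 normalized CPM with HCME-sEVs and 109, 90.3, and 93.5 with LME-sEVs. It was lower in all 3 LME-sEV libraries, with a log2 fold change of -0.98 ± 0.13 (SE, FDR = 0.000147). *Socs2* and *Socs1*, inhibitors of JAK signals, fell by 0.66 and 0.62 on the log2 scale (FDR = 0.00202 and 0.00529). *Socs3*, the inhibitor that binds gp130 and is induced by STAT3, had a log2 fold change of -0.22 ± 0.16 (SE, FDR = 0.461).

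Of 15 genes known as targets of STAT3 or STAT4, a list that includes *Il18r1* and *Il21r*, 14 were tested, 2 rose, and 3 fell, with a median log2 fold change of -0.14. Scaled by library size only, 3 rose and 2 fell, since *Furin* joined (FDR = 0.0354) and *Ifng* was lost (FDR = 0.0528). The repressor *Bcl6* rose by 1.22 ± 0.19 (SE, FDR = 0.000662) and the repressor *Prdm1*, which encodes BLIMP1, by 0.92 ± 0.18 (SE, FDR = 0.00340) on the log2 scale. *Tbx21*, the T-box factor that IL-12 induces, fell by 0.41 on the log2 scale (FDR = 0.0100), and this call was lost without LME-sEV library 2 (FDR = 0.0726). The other genes of the list that fell were *Pim1*, a survival kinase (log2 fold change -0.34), and *Ifng*, the cytokine that IL-12 and IL-18 induce (-0.39), named after their values were seen. The exons of *Stat3* overlap those of *Stat5a* on the opposite strand, those of *Bcl6*, *Cish*, *Ebi3*, and *Irak2* overlap predicted genes on the opposite strand, and *Irak2* and *Socs2* have other genes with a near-identical 3′ end, so their counts are uncertain.

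**Figure D4:**
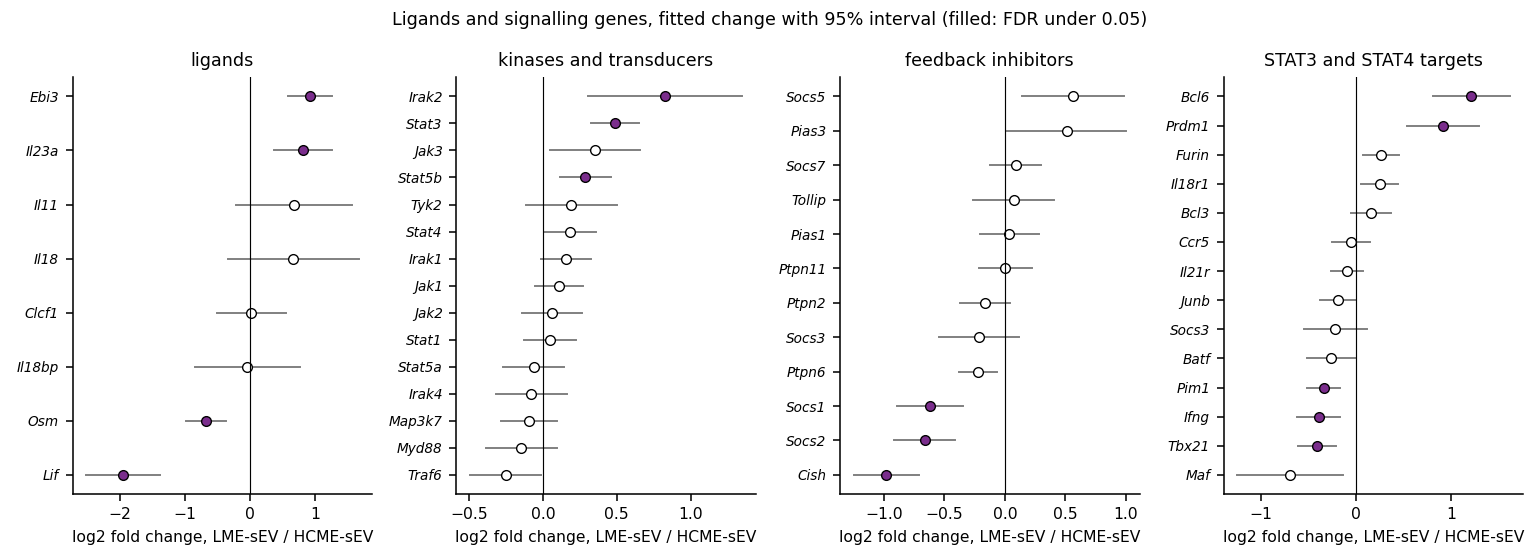
Fitted log2 fold change of LME-sEV over HCME-sEV (horizontal axes, 1 scale per panel) with its 95% interval for the tested ligands, kinases and transducers, feedback inhibitors, and STAT3 and STAT4 targets; filled points have an FDR under 0.05. Filled points lie on both sides of 0 among ligands and targets, only above 0 among the 15 kinases and transducers, and only below 0 among the 12 feedback inhibitors.

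The cells were checked against their markers. *Cd8a* held 341 to 376 normalized CPM with HCME-sEVs and 401 to 435 with LME-sEVs, a log2 fold change of 0.20 ± 0.07 (SE, FDR = 0.0891), and *Cd8b1* one of 0.19 ± 0.08 (SE, FDR = 0.148). Of 10 CD8 T cell markers, 2 rose (*Cd3e*, a subunit of CD3, with a log2 fold change of 0.36 and FDR = 0.0106, and *Cd3g*, with 0.49 and FDR = 0.0405) in edgeR and in limma-voom, but only *Cd3e* in DESeq2 (FDR = 0.271 for *Cd3g*). The log2 fold change was positive for 6 of the 10 and negative for 4. None of the 10 fell in these 3 tests or at an unadjusted p under 0.05. *Cd4* was counted 0 to 3 times and the NK cell marker *Ncr1* 0 or 1 times per library. Summed over the list, 11 B cell markers held 248 to 291 normalized CPM with HCME-sEVs and 334 to 355 with LME-sEVs, mostly from *Ighm* (219.96 to 325). Of these, 6 were tested and 2 rose, the immunoglobulin chains *Ighm* and *Igkc*. The log2 fold change was positive for 5 of the 6 and negative for *Ms4a1* (-0.38, FDR = 0.742). Under the minimum for the test, *Pax5* was counted 2, 2, 4, and 6 against 1, 1, and 1 times, with groups that did not overlap. *Cd22* was counted 3, 1, 0, and 1 against 3, 3, and 1 times. Of 5 CD4 T cell and Treg markers 2 were tested and both rose: *Ctla4*, an inhibitory receptor of activated T cells, and *Zbtb7b*, a factor of CD4 lineage choice. *Foxp3* was counted 0 or 1 times. The sums of this list were 109.9 to 153 normalized CPM with HCME-sEVs and 168 to 224 with LME-sEVs, mostly from *Ctla4* (103 to 206). Of 7 NK cell markers 2 were tested and none was called by edgeR, DESeq2, or limma-voom (1 lower at an unadjusted p under 0.05). The NK cell sums of 168 to 204 normalized CPM came mostly from *Eomes* (159 to 199). Of 10 erythroid and platelet markers 8 were tested and 3 rose in edgeR and in limma-voom (*Hba-a1*, *Pf4*, and *Ppbp*) but none in DESeq2, with sums of 74.9 to 183 normalized CPM with HCME-sEVs and 160 to 207 with LME-sEVs. The part of these lists in the levels of *Il10ra* and *Il12rb1* was not tested.

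**Figure D5:**
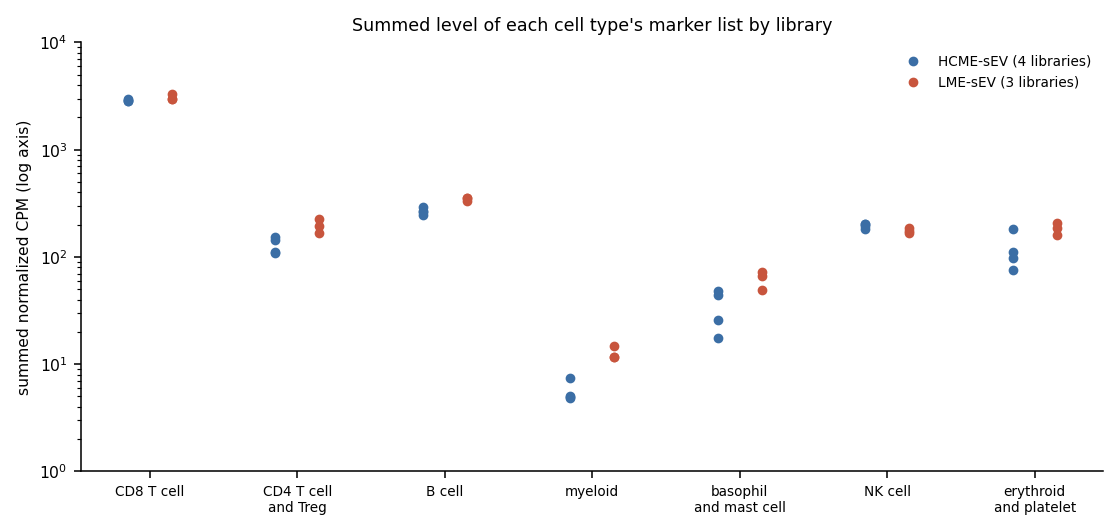
Summed normalized CPM of the marker list of each cell type (vertical axis, log scale) in every HCME-sEV library (blue) and LME-sEV library (red). The B cell sums come mostly from *Ighm*, the CD4 T cell and Treg sums from *Ctla4*, and the NK cell sums from *Eomes*. All LME-sEV libraries are higher for 5 lists, CD8 T cell (2839 to 2943 against 2979 to 3293), CD4 T cell and Treg (109.9 to 153 against 168 to 224), B cell (248 to 291 against 334 to 355), myeloid (4.80 to 7.47 against 11.6 to 14.8), and basophil and mast cell (17.6 to 47.6 against 49.4 to 71.7), and the NK cell and the erythroid and platelet lists overlap.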

How the data were processed

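Bulk 3′ RNA-seq libraries (QuantSeq FWD with UMI) of 4 HCME-sEV and 3 LME-sEV cultures were analyzed. Per the labels, the authors trimmed reads with cutadapt 2.10, mapped them to GRCm38 with STAR 2.5.3a, collapsed UMIs with UMI-tools 1.0.0, and counted with featureCounts of Subread 2.0.0; the deposited values are raw counts per gene symbol, without filter. Annotation release and strand setting were not given in the sources used here. Collapsing by UMI removes PCR copies, and levels rest on where the annotation puts each 3′ end.

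Groups were taken from the treatment label. After TMM scaling, genes averaging 5 or more counts were compared between LME-sEV and HCME-sEV by the quasi-likelihood test of edgeR 4.0.16 in R 4.3.3, without covariates, and FDR was computed by the Benjamini–Hochberg method across the 12623 genes that qualified. SE is the log2 fold change divided by the root of F. Chain ratios used log2 CPM with a prior count of 2 and a two-sided exact permutation test. The exact test of *Il1r2* used log2 of CPM plus 0.5. The test steps were checked on simulated counts.

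The members and gene lists were chosen with earlier results of these data known. Named were the members, their partner chains, every gene with an FDR under 0.05 among the other receptors and ligands, up to 3 of the lowest FDR in each signaling list, and defining markers, of which 1 is not reported here; further genes were named after their values were seen. Coordinates came from GENCODE vM21, promoters from RefSeq, and near-identical 3′ ends (95% identity over 200 of the last 300 bases) from blast. Alternatives were DESeq2 1.42.0 (size factors and test), scaling by library size only, limma-voom (limma 3.58.1), other count filters, a replicate block, other prior counts, and leaving out each library. Other cell types of the study were not analyzed here.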

Additional observations from a re-analysis of the deposited data

Results flagged for a closer look

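Among the 10 members, *Il10ra* in HCME-sEV library 3 stood apart from the other libraries of its group: at 31.7 normalized CPM against 26.5 to 26.9, the gap was 0.931 of the range of the 4 libraries, beyond Dixon's critical value for 4 values. Chance gives about 1 such gap in 20 groups, and 1 was found in the 10 members tested. That library lies toward the LME-sEV libraries (46.0 to 57.8), and without it the log2 fold change of *Il10ra* was 0.97 (FDR = 4.01e-05). The LME-sEV group has too few libraries for this check.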

How the results depend on the processing

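Under all 15 other settings run, *Il10ra* kept its direction and an FDR under 0.05 (highest 0.00291), as did *Il7r*, *Ebi3*, *Lif*, *Stat3*, *Cish*, *Socs1*, *Socs2*, *Bcl6*, and *Prdm1*. *Il9r* was called in each of the 13 settings that gave it an adjusted p. This adds no support, since *Il9r* had to differ to be tested, as given above. *Il12rb1* was called in 13 of 15, with the exceptions given above. No called value changed its sign. The number of members called was 2 under DESeq2's size factors, library size only, the DESeq2 test, limma-voom, filterByExpr, and at least 5 counts in every library. It was 4 without the minimum on counts, where *Il1r2* and *Il6st* (FDR = 0.0377) joined, on FDRs not comparable with the fit with the minimum, as given above. It was 1 to 3 when a library was left out, 1 being without LME-sEV library 1 or 2. Over all genes, 1131 were called, and 391 to 1305 when a library was left out. The count was 723 without HCME-sEV library 2, 391 without LME-sEV library 2, and 458 without LME-sEV library 3. Of the 1131, 473 were higher and 658 lower, whereas scaling by library size only gave 614 higher and 465 lower. The *Irak2* call was also lost in the DESeq2 test (FDR = 0.108). Whether the numbers 1 to 3 shared by the groups pair the libraries was not stated. Deviations of same-numbered libraries correlated at 0.072, 0.155, and 0.027. Those of differently numbered libraries correlated at -0.206 to 0.080, the highest being HCME-sEV library 3 and LME-sEV library 1. With so few libraries these values do not settle whether the numbers pair them. With the replicate number as a block, 1454 genes and 3 members were called, *Il6st* being added (FDR = 0.0457). Chain ratios kept their direction at prior counts of 0.5 and 5 and without any 1 library, where the exact test can no longer go below 0.05; no other normalization was run for them, since it cancels in a ratio. The cause of these shifts was not tested. Depth limits *Il1r2*, *Il27ra*, and *Il6ra* most.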
